A study of Mus musculus with 9 samples.

Results

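The 36 genes described here encode the enzymes, carriers and regulators with which liver breaks down fatty acids and makes ketone bodies. They were chosen by symbol as a pathway list, with earlier results of these data known. All 36 were found among the 34745 genes of the deposited table, each on 1 identifier, and all 36 passed the filter on low counts with 13583 genes in all. By their main site or role, 16 are mitochondrial, 9 peroxisomal, 5 are acyl-CoA thioesterases, 1 is ketogenic (Bdh1), and 5 act in activation, binding or regulation (Acsl1, Fabp1, Vnn1, Crat and Pdk4). Eci2, Acad11 and Crat are known in both organelles and were counted once.

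Messenger RNA was sequenced from whole livers of male C57BL/6 mice aged 6 to 8 weeks, with food freely available, in 3 groups of 3 libraries. The WZB-D-gal/LPS group had WZB before D-gal/LPS, the D-gal/LPS group had D-gal/LPS without WZB, and the control group is labelled only as control. D-galactosamine, which sensitises hepatocytes, and lipopolysaccharide are the usual agents behind the name D-gal/LPS in models of acute liver injury. No label spells out WZB, but the study's stated design has pretreatment with GLUT1 inhibitors. Doses and times were not given in the sources used here, and no group analysed here had WZB without injury. Whether the 3 libraries of a group came from different animals is not stated, so the p-values reflect the spread between libraries alone, which may be technical.

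Long-chain fatty acids enter mitochondria as carnitine esters, through the acyltransferases encoded by Cpt1a and Cpt2, and are then shortened in repeated rounds of dehydrogenation, hydration, dehydrogenation and thiolysis. Peroxisomes take the very long, branched and dicarboxylic chains, and pass shortened products on as carnitine esters or, after a thioesterase, as free acids. In fasting, hepatocytes turn the acetyl-CoA into ketone bodies for other organs. The nuclear receptor PPARα, paired with RXRα, raises many of these genes in rodent liver.

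The libraries held 15072509 to 18106895 counts. Levels of 1 gene across libraries are given as CPM, the count scaled to library size with TMM factors, and levels of different genes as the authors' FPKM, which also divides by gene length. A gene is said to have risen or fallen where edgeR's quasi-likelihood test gave an adjusted p under 0.05, after Benjamini-Hochberg adjustment over the 13583 genes. Of the markers of hepatocytes, 15 were measured, and their summed level was 175416 to 186648 CPM in WZB-D-gal/LPS libraries, 136135 to 140154 CPM in D-gal/LPS libraries and 118369 to 120319 CPM in control libraries. By gene, 4 of the 15 rose and 4 fell in D-gal/LPS against control livers, with a median log2 fold change of -0.084. Of all tested genes 29.1% rose and 29.3% fell there. None of the 15 was at 0 in any group mean. Alb, which encodes the albumin made by hepatocytes and is a large part of these sums, averaged 93561, 71913 and 51530.0 CPM in WZB-D-gal/LPS, D-gal/LPS and control livers. Summed neutrophil markers (9 genes) were 257 to 288, 378 to 403 and 5.72 to 6.09 CPM, monocyte and macrophage markers (11 genes) 194 to 239, 368 to 389 and 67.3 to 80.0 CPM, and red blood cell markers (5 genes) 422 to 712, 3583 to 4469 and 109.9 to 139.8 CPM, in the same order of groups. In whole liver, fewer cells of a type and less RNA per cell cannot be told apart, and the part of cell composition in the results below was not tested.

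Fabp1, the main fatty acid binding protein of hepatocyte cytosol, was by far the most abundant member, with 3784 ± 383 FPKM in WZB-D-gal/LPS livers, 2950.4 ± 172 in D-gal/LPS livers and 4390.4 ± 1327 in control livers (SD, n = 3 each, as for all levels below). Next was Acaa2, the mitochondrial thiolase that closes each round, with 406 ± 27.5, 325 ± 15.1 and 378 ± 18.7 FPKM in these groups. Acaa1b, a peroxisomal thiolase, followed with 136 ± 11.8, 95.1 ± 14.6 and 179.7 ± 7.93 FPKM. The thioesterases were among the 8 lowest members in control livers, with Pdk4, Crat and Hadhb. In control livers Acot1 had 5.34 ± 0.883, Acot4 4.32 ± 1.12, Acot8 3.20 ± 0.00949, Acot3 3.16 ± 1.32 and Acot2 1.14 ± 0.00960 FPKM, and of these neighbours Acot1 and Acot4, and Acot8 and Acot3, did not differ beyond their SDs.

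Hadha and Hadhb encode the 2 subunits of the mitochondrial trifunctional protein, which carries out the last steps on long chains. Hadha had 24.1 ± 0.430 FPKM in WZB-D-gal/LPS livers, 22.3 ± 0.816 in D-gal/LPS livers and 21.3 ± 0.276 in control livers. Hadhb had 2.28 ± 0.551, 1.68 ± 0.0675 and 1.44 ± 0.216 FPKM in the same groups. Whether the authors' counting left out reads of Hadhb, for example reads that map to several places, was not tested, so the gap between the partners may not be one of RNA level. Etfa and Etfb, the subunits of the flavoprotein that takes electrons from the acyl-CoA dehydrogenases, lay closer, with 125 ± 3.04 and 87.5 ± 15.3 FPKM in WZB-D-gal/LPS livers, 92.5 ± 5.02 and 77.2 ± 5.15 in D-gal/LPS livers, and 81.7 ± 3.59 and 104 ± 5.80 in control livers. Etfa stood above Etfb in both injured groups and below it in controls.

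Stretches of promoter are shown for some of the members that rose or fell in some comparison and that hold the PPARα and RXRα element or a single unit of it. Whether these letters, or the levels of the receptor genes, bear on the members' levels was not tested. RefSeq promoters (GRCm38.p6, 250 bases before to 50 after the start) were found for 31 of the 36 members. The full direct repeat, 2 copies of AGGNCA with 1 base of any kind between them, searched on both strands, was present in 122 of 27025 gene promoters (0.451%) and in 1 member, Fabp1. A single repeat unit, AGGTCA on either strand, which lies within some full repeats, was present in 4900 promoters (18.1%). It was present in 7 of the 31 members with a promoter, a share close to that of all promoters. These were Acadm, Fabp1, Echs1, Acadvl, Acot4, Acot3 and Cpt1a, of which Acadm and Acot3 are not shown. Of the stretches shown, only that of Fabp1 holds the full repeat. Capitals mark the matched letters, each sequence is read 5′ to 3′ on the strand of its gene, and a match is a description and not a binding site. Fabp1 is at chr6:71199779-71199826 (plus strand), Cpt1a at chr19:3323181-3323250 (plus), Acadvl at chr11:70015469-70015538 (minus), Echs1 at chr7:140116478-140116531 (minus) and Acot4 at chr12:84038319-84038378 (plus).
Fabp1: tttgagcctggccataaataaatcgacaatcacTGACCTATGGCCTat
Cpt1a: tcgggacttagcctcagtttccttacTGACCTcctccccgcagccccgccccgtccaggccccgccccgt
Acadvl: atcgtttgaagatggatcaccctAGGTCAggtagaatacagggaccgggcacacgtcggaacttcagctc
Echs1: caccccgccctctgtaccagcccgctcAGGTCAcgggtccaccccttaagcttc
Acot4: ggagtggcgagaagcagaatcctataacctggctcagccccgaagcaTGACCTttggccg

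Hadha and Hadhb are transcribed away from each other, Hadha on the minus strand from base 30155162 and Hadhb on the plus strand from base 30155248 of chromosome 5. The 85 bases between them, at chr5:30155163-30155247, are shown because the listed levels of this pair lay so far apart. No letters are in capitals, since no motif was marked.
Hadhb: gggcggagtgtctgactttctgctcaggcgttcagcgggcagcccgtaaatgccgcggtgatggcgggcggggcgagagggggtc

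**Figure D1:**
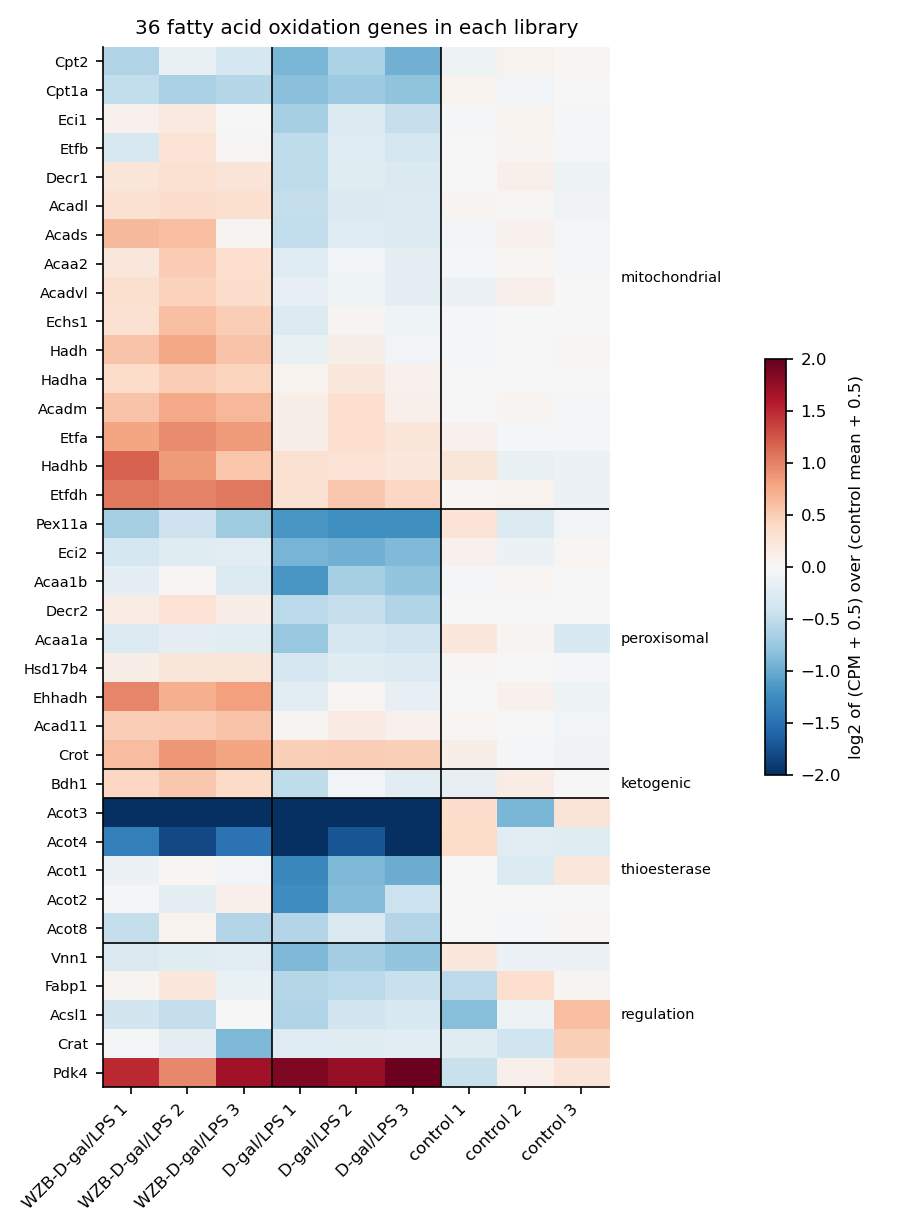
Level of each of the 36 genes (rows, by class) in each of the 9 libraries (columns), as the log2 of CPM over the control mean with 0.5 CPM added to both. Blue rows of the thioesterases Acot3 and Acot4 run through all 6 injured libraries, Pdk4 is red in all 6, and most mitochondrial rows are blue or pale in D-gal/LPS and red in WZB-D-gal/LPS libraries.

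The first comparison asked what the injury did to the pathway. In D-gal/LPS livers all 5 thioesterases, the carnitine acyltransferases Cpt1a and Cpt2, and 6 of 9 peroxisomal members fell, while the electron carriers Etfdh and Etfa, the peroxisomal acyltransferase Crot and the kinase Pdk4 rose. Of 36 members, 19 fell and 4 rose. Among all tested genes 58.4% were called, 29.3% lower and 29.1% higher. The members' median log2 fold change was -0.35, and that of all genes -0.029. The libraries of the groups did not overlap for 20 members below and 7 above control, where 65.5% of all genes stood apart, 33.1% below and 32.4% above.

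The largest changes were in the thioesterases, which split acyl-CoA into free acid and CoA. Acot3, a long-chain thioesterase of mouse peroxisomes (chr12:84052144-84059565), had 0.116, 0.395 and 0 CPM in D-gal/LPS libraries, against 11.9, 4.65 and 11.0 CPM in control libraries. These are 2, 6 and 0 counts against 193, 77 and 211, so the D-gal/LPS level rests on very few reads, and the highest D-gal/LPS library lay far below the lowest control. The log2 fold change was -5.75 ± 0.71 (SE, edgeR adjusted p = 6.3e-05). Its neighbour Acot4 (chr12:84038379-84044723), which acts on succinyl-CoA and other dicarboxylic CoA esters in peroxisomes, had 1.39, 3.30 and 2.48 CPM in D-gal/LPS libraries, against 15.7, 10.2 and 10.1 CPM in control libraries. Acot4 fell by 2.33 ± 0.29 on the log2 scale with no overlap (edgeR adjusted p = 1.34e-05).

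Acot1, the cytosolic member of the cluster (chr12:84009502-84017670), had 2.89, 3.95 and 3.66 CPM in D-gal/LPS libraries, against 7.81, 6.33 and 9.17 CPM in control libraries. Acot2, its mitochondrial counterpart (chr12:83987861-83993873), had 0.693, 1.05 and 1.59 CPM in D-gal/LPS libraries, against 2.34, 2.29 and 2.35 CPM in control libraries. Both groups stood apart for each gene, with log2 fold changes of -1.15 ± 0.20 for Acot1 and -1.06 ± 0.33 for Acot2 (edgeR adjusted p = 0.000205 and 0.0137). Acot8, a peroxisomal thioesterase with broad substrates that lies outside the cluster on chromosome 2, had 5.37, 6.72 and 5.37 CPM in D-gal/LPS libraries, against 8.42, 8.14 and 8.50 CPM in control libraries. Its fall of 0.52 ± 0.20 on the log2 scale was the smallest of the class (edgeR adjusted p = 0.0363). The Acot8 call was lost without D-gal/LPS library 1 or 3 or any 1 control library (edgeR adjusted p = 0.0536 to 0.112), and that of Acot2 without D-gal/LPS library 1 (log2 fold change -0.80, adjusted p = 0.0609). Of the stretches of 50 bases in Acot1, 23.7% also occur in Acot2, and 5.06% of those in Acot3 occur in Acot1, so reads of these copies may have been split between them. Acot3 also shares 11.5% of its exonic bases with Gm49366 on its own strand.

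**Figure D2:**
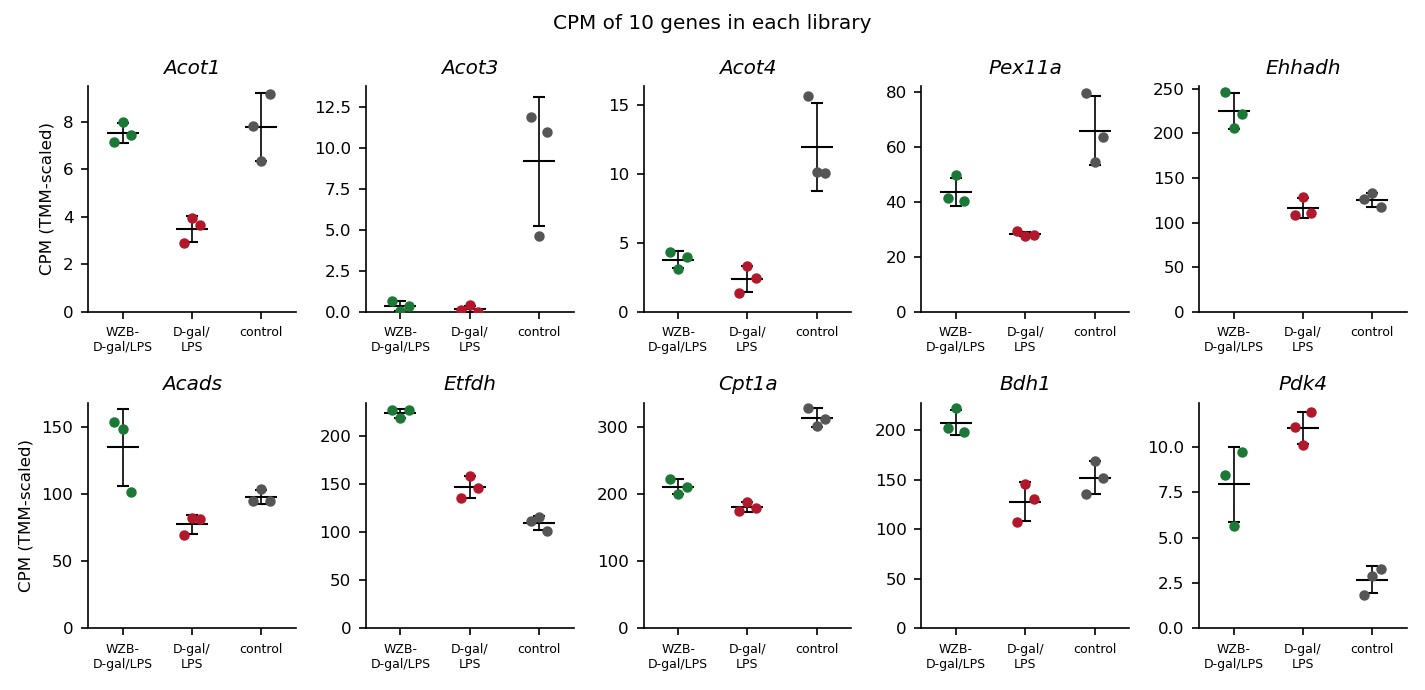
CPM of 10 members in each library, with the mean (long bar) and SD (whiskers) of 3 libraries a group, each panel on its own axis from 0. Acot3 and Acot4 are low in both injured groups, Acot1 is lowest in D-gal/LPS libraries, and Etfdh and Pdk4 are high in both injured groups.

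The entry step into mitochondria fell as well. Cpt1a, the outer membrane carnitine palmitoyltransferase at which malonyl-CoA controls the flow, had 175, 189 and 179 CPM in D-gal/LPS libraries, against 329, 302 and 312 CPM in control libraries. The groups stood well apart, and Cpt1a fell by 0.80 ± 0.075 on the log2 scale (edgeR adjusted p = 8.47e-07). Cpt2, which reverses the reaction on the inner membrane, had 40.8, 49.8 and 39.5 CPM in D-gal/LPS libraries, against 71.9, 81.1 and 79.9 CPM in control libraries (log2 fold change -0.84 ± 0.12, edgeR adjusted p = 6.3e-05).

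Among the 14 other mitochondrial members, the enzymes of the spiral, its auxiliary enzymes and its electron carriers, changes were small. Acadl, the long-chain dehydrogenase (log2 fold change -0.34), Eci1 and Decr1, auxiliary enzymes for unsaturated chains (-0.46 and -0.35), and Etfb (-0.37) fell (edgeR adjusted p = 0.00154 to 0.0216). Acadm, the medium-chain dehydrogenase, had 219.7, 257 and 218 CPM in D-gal/LPS libraries, against 202, 209.8 and 197 CPM in control libraries. Its D-gal/LPS libraries all lay above the controls, and the log2 fold change of 0.19 ± 0.085 missed the threshold (edgeR adjusted p = 0.0682). Acadvl, Acads, Hadha, Hadhb, Hadh, Echs1 and Acaa2, with log2 fold changes between -0.34 and 0.28, also did not pass (edgeR adjusted p = 0.0552 to 0.842). Dvl2, on the other strand, covers 42.9% of the exonic bases of Acadvl, so its value may include reads of that gene. Without WZB-D-gal/LPS library 1 or 3, Acads passed (adjusted p = 0.042 and 0.00642).

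The electron transfer branch moved the other way in part. Etfdh, the oxidoreductase that hands the electrons to ubiquinone, had 135, 158 and 146 CPM in D-gal/LPS libraries, against 111, 115 and 101 CPM in control libraries. The groups did not overlap, and Etfdh rose by 0.43 ± 0.081 on the log2 scale (edgeR adjusted p = 0.000505). Etfa rose by 0.24 ± 0.080 while its partner Etfb fell by 0.37 ± 0.13 (edgeR adjusted p = 0.0216 for each). The difference between the partners was not tested, and each of these calls was lost when certain single libraries were left out (adjusted p = 0.0561 to 0.084 for Etfa without D-gal/LPS library 2 or 3 or control library 2 or 3, and 0.0514 to 0.0871 for Etfb without D-gal/LPS library 1 or 3 or control library 2). The deposited counts may also not separate Etfb from Gm45233, an annotated gene on its strand that shares 53.0% of its exonic bases.

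Among the 9 members classed as peroxisomal, the fall was widest at Pex11a, which promotes peroxisome division. Pex11a had 29.2, 27.7 and 27.9 CPM in D-gal/LPS libraries, against 79.4, 54.5 and 63.6 CPM in control libraries. The D-gal/LPS libraries were tightly grouped far below the controls, with a log2 fold change of -1.22 ± 0.13 (edgeR adjusted p = 3.6e-06). Eci2, an isomerase for unsaturated chains, fell by 0.93, the thiolase Acaa1b by 0.86, the reductase Decr2 by 0.53, the thiolase Acaa1a by 0.49 and the multifunctional enzyme Hsd17b4 by 0.28 on the log2 scale (edgeR adjusted p = 3.45e-07 to 0.00771). Acaa1a and Acaa1b are near copies, with 34.0% of the stretches of 50 bases in Acaa1a also found in Acaa1b, so their separate values are uncertain.

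Other peroxisomal members did not fall. Ehhadh, the bifunctional enzyme of the PPARα-driven branch, had 108, 129 and 111 CPM in D-gal/LPS libraries, against 126, 133 and 117 CPM in control libraries. These ranges overlapped and the log2 fold change was -0.11 ± 0.094 (edgeR adjusted p = 0.33), while Acad11, a dehydrogenase, had one of 0.10 (adjusted p = 0.222). Crot, which makes the octanoyl-carnitine that leaves the peroxisome, had 334, 339 and 337 CPM in D-gal/LPS libraries, against 261, 234 and 229 CPM in control libraries. It was the peroxisomal member that rose, by 0.48 ± 0.085 on the log2 scale (edgeR adjusted p = 0.000287).

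Bdh1, which converts acetoacetate to 3-hydroxybutyrate in the last step of ketogenesis, had 107, 146 and 130.2 CPM in D-gal/LPS libraries, against 135, 169 and 152 CPM in control libraries. The ranges overlapped, and the log2 fold change of -0.25 ± 0.11 did not pass (edgeR adjusted p = 0.0721), though it did without D-gal/LPS library 2 or control library 1 (log2 fold change -0.34 in each, adjusted p = 0.0218 and 0.0304).

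Pdk4, a kinase that shuts off pyruvate dehydrogenase and so spares glucose when fat is burned, had 11.1, 10.1 and 11.9 CPM in D-gal/LPS libraries, against 1.84, 2.90 and 3.28 CPM in control libraries. It was the member with the largest rise, of 2.03 ± 0.24 on the log2 scale (edgeR adjusted p = 7.81e-06), and its groups stood far apart. Vnn1, a pantetheinase that releases the precursor of CoA, fell by 0.80 ± 0.12 (edgeR adjusted p = 5.76e-05). Fabp1 had 1524, 1553 and 1662 CPM in D-gal/LPS libraries, against 1570.0, 2849.6 and 2341 CPM in control libraries, so control library 1 lay within the D-gal/LPS range. The Fabp1 fall of 0.51 ± 0.19 only just passed (edgeR adjusted p = 0.0454). It was lost in 7 of 9 fits that left out 1 library, those without WZB-D-gal/LPS library 1 or 2, any D-gal/LPS library, or control library 2 or 3 (adjusted p = 0.0591 to 0.141).

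Acsl1, which activates long-chain fatty acids with CoA, had 179, 209 and 220.4 CPM in D-gal/LPS libraries, against 151, 255 and 413 CPM in control libraries. With controls this wide the test did not pass (log2 fold change -0.43 ± 0.35, edgeR adjusted p = 0.344), and without control library 1 it did (-0.72, adjusted p = 0.0265). Crat, which handles short-chain carnitine esters, did not pass either (-0.25 ± 0.26, adjusted p = 0.432).

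The second comparison asked how injured livers with WZB differed from injured livers without it. In WZB-D-gal/LPS livers all 16 mitochondrial members, 8 of 9 peroxisomal members and Bdh1 rose relative to D-gal/LPS livers, by 1.17-fold to 1.94-fold. Of 36 members 28 rose and 0 fell by edgeR's quasi-likelihood test. Among all tested genes 28.5% were called, 13.8% higher and 14.7% lower. At an unadjusted p under 0.05, 30 were higher and 0 lower, and DESeq2 and limma voom called 26 and 28 higher and 0 lower. The median log2 fold change was 0.57 for the members and -0.022 for all genes. The groups' libraries did not overlap for 29 members above D-gal/LPS and 1 below, where 45.3% of all genes stood apart, 21.3% above and 24.0% below.

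Abundant genes as a whole moved in the same direction. Among the 1021 genes with a mean of at least 100 CPM, a threshold chosen after the data were seen, 54.3% rose and 9.89% fell, with a median log2 fold change of 0.33, and of the 24 members among them 21 rose, with a median of 0.57. Of the 15 hepatocyte markers 11 rose (median 0.44). With libraries scaled to these markers, an alternative chosen after the data were seen that shifts the median of all genes by -0.45, 6 members rose and 2 fell, with a median of 0.12, while over all genes 258 rose and 5773 fell, with a median of -0.47. With total-count scaling, which shifts it by -0.20, 21 rose and 1, Pdk4, fell, with a median of 0.37. Over all genes, 1873 rose and 2001 fell, against 850 and 3290 with total-count scaling and 2358 and 1643 with upper quartile factors. How far the members' rise goes beyond that of hepatocyte transcripts in general was not tested.

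**Figure D3:**
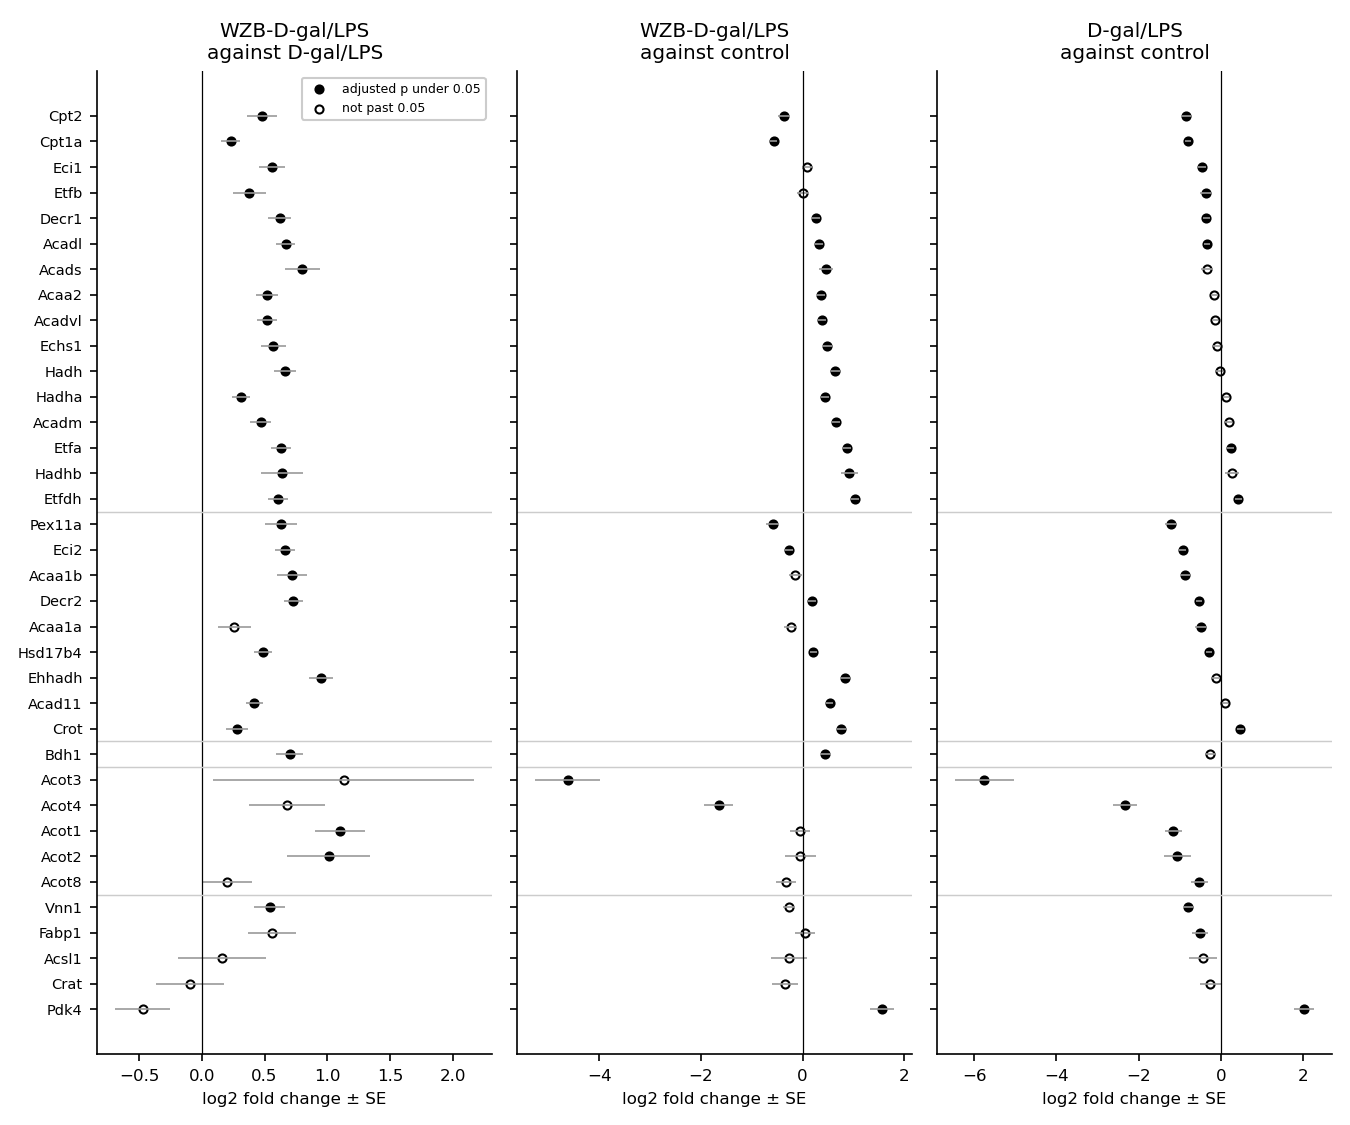
Log2 fold change ± SE of each member in the 3 comparisons, with members in rows by class and filled points where the edgeR adjusted p was under 0.05. In the left panel (WZB-D-gal/LPS against D-gal/LPS) all 16 mitochondrial points are filled and lie between 0.23 and 0.80, and in the right panel (D-gal/LPS against control) the thioesterases reach -5.75 and Pdk4 2.03.

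The largest rises were again thioesterases. Acot1 had 7.15, 7.99 and 7.43 CPM in WZB-D-gal/LPS libraries, against 2.89, 3.95 and 3.66 CPM in D-gal/LPS libraries. The lowest WZB library stood well above the highest without it, and Acot1 rose 2.15-fold (log2 fold change 1.10 ± 0.20, edgeR adjusted p = 0.00109). Acot2 had 2.26, 1.96 and 2.52 CPM in WZB-D-gal/LPS libraries, against 0.693, 1.05 and 1.59 CPM in D-gal/LPS libraries, again with no overlap. Its rise of 1.01 ± 0.33 passed narrowly (edgeR adjusted p = 0.0368), and it was lost without any 1 WZB-D-gal/LPS library or without D-gal/LPS library 1 or 2 (adjusted p = 0.052 to 0.143).

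The other 3 thioesterases did not pass. Acot3 had 0.637, 0.0754 and 0.369 CPM in WZB-D-gal/LPS libraries, which are 9, 1 and 6 counts, against 0.116, 0.395 and 0 CPM in D-gal/LPS libraries. At so few counts a difference was not detectable (log2 fold change 1.13 ± 1.04, edgeR adjusted p = 0.464). Acot4 had 4.32, 3.09 and 3.99 CPM in WZB-D-gal/LPS libraries, against 1.39, 3.30 and 2.48 CPM in D-gal/LPS libraries (0.68 ± 0.30, adjusted p = 0.112), and Acot8 had 5.87, 8.82 and 5.41 against 5.37, 6.72 and 5.37 CPM (0.20 ± 0.20, adjusted p = 0.505).

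Ehhadh rose most among the peroxisomal members. It had 246, 206 and 222 CPM in WZB-D-gal/LPS libraries, against 108, 129 and 111 CPM in D-gal/LPS libraries. The groups were far apart, with a 1.94-fold rise (log2 fold change 0.95 ± 0.094, edgeR adjusted p = 1.76e-05). With scaling to the hepatocyte markers Ehhadh still rose, by 0.51 (adjusted p = 0.00055), as did Acadl, Acads, Acaa1b, Decr2 and Acot1 (0.22 to 0.66).

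Decr2 had 172, 189 and 170.1 CPM in WZB-D-gal/LPS libraries, against 106, 113 and 102 CPM in D-gal/LPS libraries (log2 fold change 0.73 ± 0.075, edgeR adjusted p = 2.31e-05). Acaa1b had 332, 387 and 313 CPM in WZB-D-gal/LPS libraries, against 169.6, 239 and 219 CPM in D-gal/LPS libraries (0.72 ± 0.12, edgeR adjusted p = 0.00064). Neither gene's groups overlapped. Pex11a, Eci2, Hsd17b4 and Acad11 rose by 0.42 to 0.66 (edgeR adjusted p = 6.98e-05 to 0.00338), and Acaa1a, at 0.26 ± 0.13, did not pass (adjusted p = 0.179). Crot had 368, 441 and 418 CPM in WZB-D-gal/LPS libraries, against 334, 339 and 337 CPM in D-gal/LPS libraries, a rise of 0.28 ± 0.085 (edgeR adjusted p = 0.0241).

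In mitochondria the short-chain dehydrogenase Acads had the largest rise. It had 154, 149 and 102 CPM in WZB-D-gal/LPS libraries, against 69.5, 82.1 and 81.4 CPM in D-gal/LPS libraries, so that WZB library 3 stood apart from its own group while still above all D-gal/LPS libraries. The log2 fold change was 0.80 ± 0.14 (edgeR adjusted p = 0.00141). Acadm had 301, 343 and 320.4 CPM in WZB-D-gal/LPS libraries, against 219.7, 257 and 218 CPM in D-gal/LPS libraries (0.47 ± 0.085, adjusted p = 0.00115). Acadl, Hadh, Hadhb, Etfa, Decr1, Etfdh, Echs1, Eci1, Acadvl, Acaa2 and Cpt2 rose by 0.48 to 0.67 (edgeR adjusted p = 4.41e-05 to 0.0111), and Hadha by 0.31 (adjusted p = 0.00642).

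The smallest mitochondrial rise was that of Cpt1a, which had 223, 200.4 and 211 CPM in WZB-D-gal/LPS libraries, against 175, 189 and 179 CPM in D-gal/LPS libraries. Its groups did not overlap, and the log2 fold change of 0.23 ± 0.075 passed (edgeR adjusted p = 0.0369), but with scaling to the hepatocyte markers it was -0.22 (adjusted p = 0.0325). The Cpt1a call was lost without WZB-D-gal/LPS library 1 or 3, any D-gal/LPS library or control library 3 (adjusted p = 0.0552 to 0.16). Etfb (0.38 ± 0.13, adjusted p = 0.0382) was lost in 7 fits that left out 1 library (those without WZB-D-gal/LPS library 2 or 3, any D-gal/LPS library, or control library 1 or 3, adjusted p = 0.0519 to 0.156), and Crot in 5 (WZB-D-gal/LPS library 2 or 3 or any D-gal/LPS library, 0.0642 to 0.165). Cpt2 was lost without WZB-D-gal/LPS library 2 or D-gal/LPS library 3 (0.053 and 0.0548), and Hadhb without WZB-D-gal/LPS library 1 or D-gal/LPS library 2 (0.0534 and 0.0571).

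Bdh1 had 202, 222 and 198 CPM in WZB-D-gal/LPS libraries, against 107, 146 and 130.2 CPM in D-gal/LPS libraries. The groups stood apart and Bdh1 rose by 0.70 ± 0.11 on the log2 scale (edgeR adjusted p = 0.000592). Gm15743, an antisense gene, covers 13.7% of its exonic bases, and reads of the pair cannot be told apart if strand was not used in counting.

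Of the 5 genes of activation, binding and regulation, Vnn1 rose by 0.54 ± 0.12 (edgeR adjusted p = 0.00397). Fabp1 had 2332, 2603 and 2050.2 CPM in WZB-D-gal/LPS libraries, all above the D-gal/LPS libraries, and its log2 fold change of 0.56 ± 0.19 missed the threshold (edgeR adjusted p = 0.0589), but passed without control library 1 or 2 (adjusted p = 0.00176 and 0.0121). Pdk4 had 8.42, 5.65 and 9.71 CPM in WZB-D-gal/LPS libraries, all below the 11.1, 10.1 and 11.9 CPM of D-gal/LPS libraries, with a log2 fold change of -0.47 ± 0.22 that did not pass (adjusted p = 0.133). Acsl1 (0.16 ± 0.35) and Crat (-0.091 ± 0.27) did not pass either (adjusted p = 0.79 and 0.839).

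The third comparison asked what still set injured livers with WZB apart from control livers. This comparison and the other 2 share libraries, so their values are given side by side and are not independent. Relative to controls, 19 members rose and 6 fell in WZB-D-gal/LPS livers, where 60.6% of all tested genes were called, 32.6% higher and 28.0% lower. By class, 12 of 16 mitochondrial members rose, and 2 of 5 thioesterases fell. The members' median log2 fold change was 0.20 and that of all genes 0.075, and 18 members stood wholly above and 7 wholly below the control libraries, where 65.9% of all genes stood apart, 35.0% above and 30.9% below.

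This split rests on the scaling. With total-count scaling, which shifts the median of all genes by -0.25, 11 members rose and 10 fell with a median of -0.054, and over all genes 3248 rose and 5061 fell, against 4430 and 3806. With scaling to hepatocyte markers, which shifts it by -0.46, 6 members rose and 16 fell with a median of -0.26, while over all genes 2441 rose and 6138 fell, with a median of -0.38. Hepatocyte markers themselves rose in 9 of 15 cases and fell in 1 (median 0.58), and among genes of at least 100 CPM 64.0% rose and 13.0% fell (median 0.47), where 17 of the 24 members rose, 2 fell and the median was 0.37.

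The thioesterases Acot3 and Acot4 remained far below control. Acot3 had 0.637, 0.0754 and 0.369 CPM in WZB-D-gal/LPS libraries, against 11.9, 4.65 and 11.0 CPM in control libraries (log2 fold change -4.62 ± 0.64, edgeR adjusted p = 0.000136). Acot4 had 4.32, 3.09 and 3.99 CPM, against 15.7, 10.2 and 10.1 CPM in control libraries (-1.65 ± 0.28, edgeR adjusted p = 0.000186). Acot1 and Acot2 lay within or near the control range, with log2 fold changes of -0.050 ± 0.19 and -0.045 ± 0.31 (adjusted p = 0.834 and 0.911), and Acot8 at -0.32 ± 0.20 (adjusted p = 0.174, or 0.0214 with -0.57 without WZB-D-gal/LPS library 2). Acot3 and Acot4 fell under each scaling, with -5.06 and -2.10 under that to hepatocyte markers, where Acot1 and Acot8 fell too (-0.51 and -0.79, adjusted p = 0.0333 and 0.00283).

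Cpt1a also stayed below control, at 223, 200.4 and 211 CPM in WZB-D-gal/LPS libraries, against 329, 302 and 312 CPM in control libraries. No library overlapped, and the log2 fold change was -0.57 ± 0.075 (edgeR adjusted p = 1.95e-05), with -0.83 and -1.03 under total-count scaling and scaling to hepatocyte markers. Pex11a had 41.3, 49.5 and 40.1 CPM against 79.4, 54.5 and 63.6 CPM (-0.59 ± 0.13, adjusted p = 0.00148), and Eci2 (-0.27) and Cpt2 (-0.36) fell too (adjusted p = 0.00877 and 0.0227). The Cpt2 call was lost without WZB-D-gal/LPS library 1 or 3 or control library 2 or 3 (adjusted p = 0.0573 to 0.103).

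Several members stood above both other groups. Etfdh had 226, 218 and 226 CPM in WZB-D-gal/LPS libraries, against 111, 115 and 101 CPM in control libraries, a 2.05-fold rise with no overlap (log2 fold change 1.03 ± 0.082, edgeR adjusted p = 1.96e-07). Etfa had 289, 322 and 303 CPM against 177, 162 and 163 CPM (0.87 ± 0.081, adjusted p = 9.1e-07), while its partner Etfb had 194, 293 and 247 CPM against 242, 253 and 236 CPM (0.0085 ± 0.12, adjusted p = 0.959). Both Etfdh and Etfa rose under scaling to hepatocyte markers as well, by 0.58 and 0.41.

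Ehhadh had 246, 206 and 222 CPM in WZB-D-gal/LPS libraries, against 126, 133 and 117 CPM in control libraries (log2 fold change 0.84 ± 0.094, edgeR adjusted p = 4.94e-06). Crot had 368, 441 and 418 CPM in WZB-D-gal/LPS libraries, against 261, 234 and 229 CPM in control libraries (0.76 ± 0.085, adjusted p = 4.97e-06). Hadhb had 27.5, 21.7 and 17.6 CPM in WZB-D-gal/LPS libraries, against 14.0, 10.6 and 10.8 CPM in control libraries (0.92 ± 0.17, adjusted p = 0.000332). These 3 genes stood above all controls, and each rose also under scaling to hepatocyte markers (0.38, 0.31 and 0.46).

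Acadm (log2 fold change 0.66), Hadh (0.64), Acad11 (0.53), Echs1 (0.48), Acads (0.46), Bdh1 (0.45), Hadha (0.44), Acadvl (0.38), Acaa2 (0.36), Acadl (0.33), Decr1 (0.26), Hsd17b4 (0.21) and Decr2 (0.19) rose in the main scaling (edgeR adjusted p = 1.72e-05 to 0.0371). None of these 13 rose with scaling to hepatocyte markers, where Hsd17b4 and Decr2 fell (-0.25 and -0.27). Leaving out 1 library ended the calls of Decr2 (5 fits, those without WZB-D-gal/LPS library 2, D-gal/LPS library 2 or any control library, adjusted p = 0.0778 to 0.165), Hsd17b4 (4 fits, WZB-D-gal/LPS library 2 or 3, D-gal/LPS library 2 or control library 3, 0.0622 to 0.111), Decr1 (3 fits, WZB-D-gal/LPS library 2, D-gal/LPS library 2 or control library 3, 0.0568 to 0.0949) and Acads (2 fits, WZB-D-gal/LPS library 1 or 2, 0.0545 and 0.0562).

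Pdk4 was still above control, with 8.42, 5.65 and 9.71 CPM in WZB-D-gal/LPS libraries, against 1.84, 2.90 and 3.28 CPM in control libraries (log2 fold change 1.56 ± 0.24, edgeR adjusted p = 9.15e-05). Eci1, Acaa1a, Acaa1b, Acsl1, Fabp1, Vnn1 and Crat, with log2 fold changes between -0.35 and 0.093, did not pass (adjusted p = 0.069 to 0.849). With total-count scaling Acaa1a, Acaa1b and Vnn1 fell (-0.49, -0.40 and -0.51, adjusted p = 0.00158 to 0.00678), and with scaling to hepatocyte markers these 3 (-0.69, -0.60 and -0.71), Eci1 (-0.37) and Crat (-0.82) fell (adjusted p = 0.000105 to 0.0112). Vnn1 passed without D-gal/LPS library 2 or control library 2 (adjusted p = 0.0263 and 0.0459), and Acaa1a without control library 3 (0.0205).

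**Figure D4:**
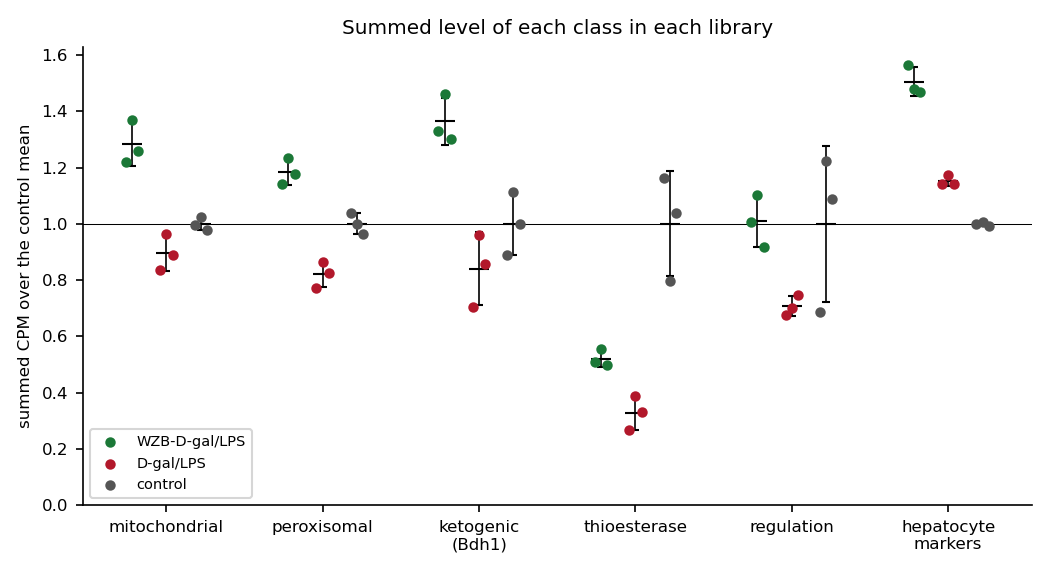
Summed CPM of each class, and of 15 hepatocyte markers, in each library over the control mean, with mean and SD bars (n = 3). With TMM scaling the mitochondrial and peroxisomal sums lie below control in D-gal/LPS and above it in WZB-D-gal/LPS libraries (with total-count scaling the peroxisomal sums of WZB-D-gal/LPS and control libraries overlap). The hepatocyte sum, of which Alb is a large part, lies above control in both injured groups. By gene, 4 of the 15 markers rose and 4 fell in D-gal/LPS against control livers. The thioesterase sum lies below control in both injured groups.

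Summed over each library, the 16 mitochondrial members held 3539, 3971 and 3649 CPM in WZB-D-gal/LPS libraries, 2426, 2793 and 2572 CPM in D-gal/LPS libraries and 2889, 2966 and 2839 CPM in control libraries. The 9 peroxisomal members held 1946, 2103 and 2006 CPM, 1314, 1472 and 1406 CPM, and 1767, 1699 and 1641 CPM in these groups. With this TMM scaling the 3 groups occupied separate ranges for both classes, with D-gal/LPS lowest and WZB-D-gal/LPS highest. With total-count scaling D-gal/LPS was still lowest, but the peroxisomal sums were 1796 to 1833 CPM in WZB-D-gal/LPS libraries, within the 1738 to 1878 CPM of control libraries, and the mitochondrial sums were 3266 to 3461 CPM against 3008 to 3262 CPM. The median log2 fold change of WZB-D-gal/LPS against control was -0.062 for the peroxisomal members with total-count scaling, and -0.27 for them and -0.054 for the mitochondrial members with scaling to hepatocyte markers. The 5 thioesterases held 20.2, 21.9 and 19.7 CPM in WZB-D-gal/LPS libraries, 10.5, 15.4 and 13.1 CPM in D-gal/LPS libraries and 46.1, 31.6 and 41.1 CPM in control libraries, so that here both injured groups lay below all controls, as they did with total-count scaling (17.9 to 19.1, 11 to 15.5 and 34.8 to 49 CPM).

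The regulators of the pathway, from a list of 22 genes, were called lower more often than higher with injury. Of these 14 fell and 1 rose in D-gal/LPS livers against control, with a median log2 fold change of -1.02, where 29.3% of all tested genes fell and 29.1% rose. In WZB-D-gal/LPS against D-gal/LPS livers 6 rose and 1 fell (median 0.076), where 13.8% of all genes rose and 14.7% fell, and in WZB-D-gal/LPS against control livers 12 fell (-0.52), where 28.0% of all genes did. Ppara had 14.7, 11.7 and 17.6 CPM in WZB-D-gal/LPS libraries, 12.3, 16.7 and 13.8 CPM in D-gal/LPS libraries and 40.8, 36.5 and 34.3 CPM in control libraries. Its partner Rxra had 79.0, 90.7 and 82.5 CPM, 91.9, 83.4 and 90.5 CPM, and 337, 289 and 316 CPM in these groups. For both receptors the injured groups overlapped each other and lay far below control: against control, D-gal/LPS livers had -1.38 ± 0.16 and -1.83 ± 0.086, and WZB-D-gal/LPS livers -1.34 ± 0.16 and -1.90 ± 0.086 on the log2 scale (edgeR adjusted p = 7.42e-06 or less), while between the injured groups the log2 fold changes were 0.041 ± 0.16 and -0.076 ± 0.084 (adjusted p = 0.879 and 0.548).

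Ppargc1a, the coactivator of fasting, fell by 1.57 ± 0.34 in D-gal/LPS against control livers and rose by 1.17 ± 0.35 in WZB-D-gal/LPS against D-gal/LPS livers (edgeR adjusted p = 0.0015 and 0.0235). Cyp4a14, a fatty acid omega-hydroxylase, had 164, 90.0 and 114 CPM in WZB-D-gal/LPS libraries, 13.1, 23.7 and 19.9 CPM in D-gal/LPS libraries and 103, 97.0 and 103 CPM in control libraries, so that only the D-gal/LPS libraries were low. Fgf21, a hormone of fasting, had 0.566, 0.0754 and 0.553 CPM, 0.520, 0 and 0.177 CPM, and 8.24, 8.51 and 8.65 CPM in these groups and was low in both injured groups, as Acot3 was. Of 18 tested genes of omega oxidation and other PPARα targets, 12 fell and 3 rose in D-gal/LPS against control livers, and 12 rose and 1 fell in WZB-D-gal/LPS against D-gal/LPS livers (medians -0.67 and 0.64), beside the same shares of all genes as for the regulators. For this list and the regulators, the calls and medians are from the main scaling only. With that scaling the hepatocyte markers had a median of 0.44 in WZB-D-gal/LPS against D-gal/LPS livers.

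Slc25a20, the carrier that moves carnitine esters between the steps of Cpt1a and Cpt2, had 69.6, 88.4 and 78.8 CPM in WZB-D-gal/LPS libraries, 49.5, 52.1 and 51.7 CPM in D-gal/LPS libraries and 84.4, 89.1 and 82.3 CPM in control libraries. The D-gal/LPS libraries lay below all others, and the WZB-D-gal/LPS and control ranges overlapped. Slc25a20 fell by 0.74 ± 0.095 in D-gal/LPS against control livers and rose by 0.63 ± 0.095 in WZB-D-gal/LPS against D-gal/LPS livers on the log2 scale (edgeR adjusted p = 1.68e-05 and 0.000334). In WZB-D-gal/LPS against control livers its log2 fold change of -0.11 did not pass (adjusted p = 0.319).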

How the data were processed

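Messenger RNA of mouse liver was sequenced in 9 libraries, 3 in each of 3 groups. The authors deposited 1 table with a whole-number read count and an FPKM value per gene and library, and the deposited counts were used for every main test. The build GRCm38.p4 (mm10) and the tools R 4.1.2 and limma are named, per the submitters' processing notes, without a role. Aligner, counting program, annotation release and strandedness were not given in the sources used here, so reads of overlapping genes may be shared. Of 21 value columns, 3 matched no labelled sample and were not used. Counts and the deposited FPKM were proportional within 1% in 100.0% of 10194 genes. No pair of libraries was identical.

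From the counts, filterByExpr kept 13583 genes (99.93% of reads), and edgeR 4.0.16 in R 4.3.3 fitted all 9 libraries as 3 groups with TMM scaling and its robust quasi-likelihood test (6 residual degrees of freedom). Adjusted p-values are Benjamini-Hochberg over all tested genes, threshold 0.05. The SE is the size of the log2 fold change over the square root of F. The procedure was tested on simulated data. In these a small set of genes changed, as many up as down, and libraries differed in total alone. The simulation therefore cannot show how the results depend on scaling. Alternatives were a replicate block, only the 2 groups compared, other scalings and filters, DESeq2 1.42.0, limma 3.58.1 (voom, and on log2 FPKM with 0.1 or 1 added), a threshold of 1 on the log2 fold change, and leaving out each library. Depth of 15072509 to 18106895 counts limits the genes with few counts, such as Acot3.

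The members and lists were chosen with earlier results of these data known, so no list was tested, and counts are set beside the shares of all tested genes. All members are named. Values in every library are given for the 6 largest called changes in each of the first 2 comparisons, the 8 largest in the third, every thioesterase, Bdh1, Cpt1a, Acadm and Ehhadh, and for fixed genes around the pathway, some of which are not reported here. Others, such as Fabp1, Acsl1 and Etfb, were added after their values were seen. Positions are from the deposited table, and sequences from RefSeq (GRCm38.p6). Overlapping exons were counted in GENCODE M21 and shared 50-base stretches in its transcripts. Of the 36 members, 24 had the same start and end there as in the deposited table, and all 36 overlapped. For members with other bounds, such as Acot3, the shares may differ from those in the annotation that was counted.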

Additional observations from a re-analysis of the deposited data

How the results depend on the processing

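Over 21 alternatives (the fold threshold aside), 18 of 23 calls of members in D-gal/LPS against control, 6 of 28 in WZB-D-gal/LPS compared with D-gal/LPS, and 11 of 25 in WZB-D-gal/LPS against control held in all. Same-numbered libraries did not deviate together (correlations -0.053 to 0.031), so the numbers were not taken as pairs. With a replicate block 25, 28 and 25 members were called in the 3 comparisons, against 23, 28 and 25. Past a threshold of 1 on the log2 fold change, 6, 2 and 4 members and 4185, 789 and 4151 of all genes remained. Leaving out 1 library gave 19 to 24, 23 to 29 and 22 to 25 members called, 7190 to 8084, 2707 to 4050 and 7659 to 8212 of all genes, and medians of -0.38 to -0.28, 0.50 to 0.61 and 0.13 to 0.23, where the lowest, 0.13, was without D-gal/LPS library 2. The members' median in WZB-D-gal/LPS against D-gal/LPS, 0.57, was 0.37 with total-count scaling, 0.46 with a filter of 5 CPM in 3 libraries, 0.37 and 0.32 with limma on log2 FPKM plus 0.1 and 1, and 0.12 with scaling to hepatocyte markers, an alternative chosen after seeing the data that left 8 members and 6031 of all genes called. Against control the median of 0.20 was 0.14 with only the 2 groups compared and reversed with total-count scaling and both FPKM fits (-0.054 each) and with hepatocyte marker scaling (-0.26). Total-count scaling and both FPKM fits also reversed Hsd17b4 (-0.046 in each) and Decr2 (-0.062, -0.062 and -0.061) there. Scaling to hepatocyte markers reversed Cpt1a (-0.22), Hadha (-0.13), Etfb (-0.061), Crot (-0.17) and Acad11 (-0.024) against D-gal/LPS, and against control Acadvl (-0.087), Acadl (-0.13), Acads (-0.011), Hadha (-0.021), Eci1 (-0.37), Acaa2 (-0.10), Decr1 (-0.19), Etfb (-0.45), Hsd17b4 (-0.25), Decr2 (-0.27) and Bdh1 (-0.015). FPKM is scaled to library totals too, so both FPKM fits share total-count scaling and are not separate from it. Total-count and marker scaling shift all genes down alike, and the cause of the other changes was not tested. Acot3, with 0 to 9 counts in injured libraries, is limited by depth.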

Other observations

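Around the members, genes from lists of the same pathway gave further values. The numbers of genes called and the medians of these lists are from the main scaling only. In WZB-D-gal/LPS against D-gal/LPS livers, the median log2 fold change was 0.33 for genes of at least 100 CPM and 0.44 for hepatocyte markers. Scaling to those markers shifted the median of all genes by -0.45 there. How far the lists' rises go beyond such shifts was not tested. Beside each count below stand the shares of all tested genes: 29.1% rose and 29.3% fell in D-gal/LPS against control livers, 13.8% rose and 14.7% fell in WZB-D-gal/LPS against D-gal/LPS livers, and 32.6% rose and 28.0% fell in WZB-D-gal/LPS against control livers. Of 41 other peroxisomal genes, 25 fell and 3 rose in D-gal/LPS against control livers, and 20 rose and 1 fell in WZB-D-gal/LPS against D-gal/LPS livers (medians -0.53 and 0.33). Pxmp4, a peroxisomal membrane protein, followed Acot3 and Acot4 in staying low, with 18.8, 15.7 and 17.4 CPM in WZB-D-gal/LPS libraries, 14.8, 14.0 and 13.6 CPM in D-gal/LPS libraries and 69.5, 66.0 and 70.1 CPM in control libraries. Of 7 other acyl-CoA dehydrogenases, 6 rose in WZB-D-gal/LPS against control livers (median 1.08). Among them Acadsb, which acts on branched short chains, had 76.2, 78.4 and 79.7 CPM in WZB-D-gal/LPS libraries, 61.2, 68.8 and 58.5 CPM in D-gal/LPS libraries and 25.2, 27.2 and 20.5 CPM in control libraries, so both injured groups stood far above control.

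Of 7 other tested ketone body genes, 4 rose and 1 fell with D-gal/LPS against control, and 3 rose and 1 fell with WZB-D-gal/LPS against D-gal/LPS (medians 0.36 and 0.30). Of 7 other carnitine genes, 1 rose and 2 fell, and then 5 rose (0.10 and 0.58). Of 21 genes of fatty acid uptake, activation, lipolysis and lipid droplets, 6 rose and 12 fell, and then 9 rose and 2 fell (-0.34 and 0.38). The 6 that rose with injury are close to the share of all genes. The lipases Lipe and Pnpla2 and the lipid droplet genes Plin2 and Plin5 were among the 12 that fell, and the lipase Lipa among the 6 that rose. Of 8 other tested thioesterases, 2 rose and 4 fell, and then 3 rose and 1 fell (-0.28 and 0.36). Acot9, a mitochondrial thioesterase, went against the member thioesterases, with 6.37, 5.50 and 6.57 CPM in WZB-D-gal/LPS libraries, 10.3, 11.1 and 11.0 CPM in D-gal/LPS libraries and 2.77, 1.27 and 1.82 CPM in control libraries.

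Of the pyruvate dehydrogenase list, 6 genes beside Pdk4 were tested. Pdk1 had 78.5, 80.9 and 72.6 CPM in WZB-D-gal/LPS libraries, 28.4, 39.3 and 34.2 CPM in D-gal/LPS libraries and 52.6, 51.9 and 54.2 CPM in control libraries, lowest where Pdk4 was highest. Pdk3 had 1.91, 1.13 and 1.66 CPM, 3.64, 3.95 and 3.42 CPM, and 0, 0.603 and 0.469 CPM in these groups, with the groups in the same order as for Pdk4. In FPKM, Pdk3 averaged 0.467, 1.25 and 0.127, and Pdk4 1.80, 2.86 and 0.722, in these groups.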
